A study of Mus musculus with 4 samples.

Results

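The 45 mitosis genes described here encode the proteins that carry a cell through division, from the kinase CDK1 and its cyclins to the kinetochore, the spindle, condensin and the cytokinesis apparatus. They were chosen as a fixed list of gene symbols, and all 45 were found among the 32285 genes measured in each of 2 single-cell RNA libraries. One library held splenic B cells and the other splenic CD4+ T cells, each from 4 pools of cells of C57BL/6NRj mice mixed under hashtag antibodies. The pools were KO at day 4, Ctrl at day 4, KO at day 0 and Ctrl at day 0, in the B library and again in the T library.

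In KO mice Il2rb, the beta chain of the receptors for interleukin-2 and interleukin-15, was deleted with a Cre that is active in B cells and not in T cells. Ctrl mice are called Cre in the hashtag key, and the genotype label gives the same text, a Cre allele with floxed Il2rb, for both, so the genotype of a pool rests on that key alone. Day 4 mice had received sheep red blood cells into the peritoneum 4 days earlier, and day 0 mice were not immunized. B cells were isolated with a magnetic B cell kit, and T cells with a kit for naive CD4+ T cells. How many mice made up a pool is not stated in the labels. Each group was 1 pool, so there were no replicates, no test was possible and no p-value is given. Every interval below is a 95% interval of counting error only, and it does not cover the spread between mice, since each group was 1 pool. Intervals of levels count UMIs (unique molecular identifiers, 1 per captured RNA molecule). They are too narrow for the spread between cells as well, because many UMIs came from the same few cells.

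Most mitosis genes are silent in resting lymphocytes and are switched on late in the cell cycle, from G2 into mitosis, after DNA replication. Mature naive B and T cells rest in G0, whereas antigen drives them into rapid division, most intensely in the germinal center, the site in the follicle where activated B cells multiply with help from follicular helper T cells. Many late cell cycle genes carry a pair of promoter elements known from human and mouse cells, the cell cycle homology region (CHR, TTTGAA or TTTAAA), bound by the DREAM and MuvB complexes, and the CCAAT box, bound by NF-Y.

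Promoters of 39 of the 45 genes could be matched by symbol in the RefSeq table for GRCm38.p6, giving 41 windows of 300 bases from 250 before to 50 after an annotated start. TTTGAA stood on either strand in 33 of the 41 windows (80.5%), against 17.9% of 32851 windows of all genes. CCAAT, searched on both strands, was found in 33 windows (80.5%), against 37.4% of all windows. Both motifs occurred together in 29 windows (70.7%), against 6.95% of all windows, and TTTAAA was found in 9 (22%), against 13.2%. A match is a run of letters and not a measured binding site. The promoters of 3 genes are shown, a pair with both motifs and 1 without CCAAT. Ccnb2, which encodes cyclin B2, lies on chromosome 9 (chr9:70421525-70421704, minus strand). Cdc20, which encodes the activator of the anaphase-promoting complex, lies on chromosome 4 (chr4:118437314-118437493, minus strand). Ndc80, which encodes the outer kinetochore protein that grips microtubules, lies on chromosome 17 (chr17:71526828-71527007, minus strand) and is shown because its UMIs were among the least confined to dividing cells. Each sequence runs from 150 bases before to 30 bases after the start, and capitals mark the CCAAT box and either CHR form, on either strand:
Ccnb2: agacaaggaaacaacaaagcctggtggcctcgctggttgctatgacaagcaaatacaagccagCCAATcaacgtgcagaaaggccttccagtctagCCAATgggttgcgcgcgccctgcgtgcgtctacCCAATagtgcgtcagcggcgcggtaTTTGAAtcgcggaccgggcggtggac
Cdc20: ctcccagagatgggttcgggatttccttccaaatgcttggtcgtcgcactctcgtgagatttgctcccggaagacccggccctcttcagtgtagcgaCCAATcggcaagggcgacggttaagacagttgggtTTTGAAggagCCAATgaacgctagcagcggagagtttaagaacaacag
Ndc80: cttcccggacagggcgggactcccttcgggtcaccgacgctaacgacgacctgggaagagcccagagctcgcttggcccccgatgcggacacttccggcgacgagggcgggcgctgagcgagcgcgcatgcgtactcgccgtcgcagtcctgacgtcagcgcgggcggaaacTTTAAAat

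Cells counted as B lineage carried at least 2 UMIs over B cell markers such as Cd79a, Cd79b and Ms4a1, cells counted as T lineage at least 2 over Cd3e, Cd3d and Cd3g, and both at most 1 UMI of foreign lineage or myeloid markers. This left 5236 B lineage cells of 6339 barcodes and 7367 T lineage cells of 9307 barcodes, and 84 cell barcodes occurred in both libraries. The B pools held 1864 KO day 4, 1299 Ctrl day 4, 981 KO day 0 and 1092 Ctrl day 0 cells, with median depths of 4637 to 6086 UMIs per cell. The T pools held 3192 KO day 4, 1946 Ctrl day 4, 1269 KO day 0 and 960 Ctrl day 0 cells, with medians of 4530 to 5568 UMIs. Pools summed to between 5618090 and 13455380 UMIs in the B library and between 4500051 and 19908730 in the T library. Il2rb had 4 and 7 UMIs in B lineage cells of KO and Ctrl mice at day 4 and 0 in both day 0 pools, too few to check the genotype. Erythroid marker RNA differed between pools, summing to 808 CPM (the count scaled to a common total of UMIs) in KO day 4 B lineage cells and to between 34.6 and 64.5 CPM in the other B pools. In T lineage cells it was 10.9 CPM in KO and 735 CPM in Ctrl at day 4, and 1683 CPM in KO and 2.67 CPM in Ctrl at day 0. Its part in the results was tested only by leaving out cells with at least 10 such UMIs, after which the summed mitosis gene level of KO over Ctrl mice was 0.979 in B lineage cells at day 4 and 1.17 in T lineage cells at day 0, against 0.912 and 1.26 with them.

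The mitosis genes lay in few cells. The median cell of either library had 1 of the 45 genes detected, and 1699 B lineage and 1007 T lineage cells had none. At the other end, 109 B lineage and 141 T lineage cells had at least 10 genes, and 60 and 79 of these had at least 30. Cells with at least 5 of the 45 genes are called mitosis-high below. They numbered 191 of 5236 B lineage cells (3.65%) and 281 of 7367 T lineage cells (3.81%), and they held 74.7% of the 26191 mitosis gene UMIs of B lineage cells and 56.1% of the 50454 of T lineage cells. The class is a range of a per-cell count and not a cell type. Next to its edge, 39 B lineage and 72 T lineage cells had exactly 5 genes, while 112 and 222 had 4. Mitosis-high cells were also deeper, with medians of 18356 UMIs against 5340 in the remaining B lineage cells, and 13681 against 5097 in the remaining T lineage cells.

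**Figure D1:**
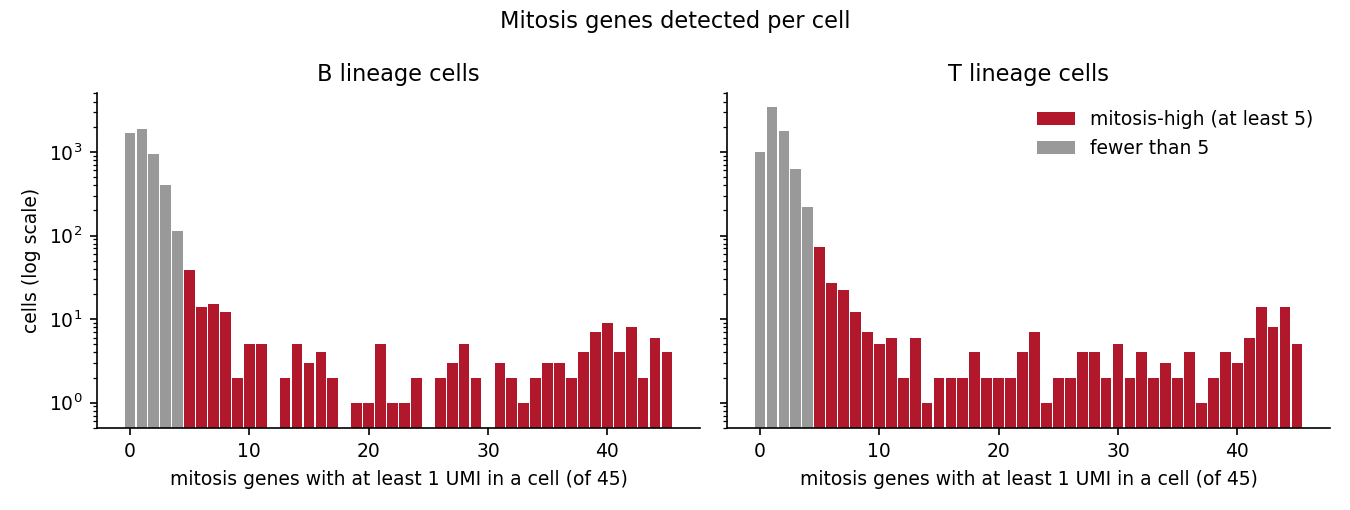
Cells (log scale) by the number of the 45 mitosis genes with at least 1 UMI, for B lineage cells (left) and T lineage cells (right); red bars are mitosis-high cells with at least 5 genes. Both libraries have a median of 1 gene per cell and a long flat tail that holds 60 B lineage and 79 T lineage cells with at least 30 genes.

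For each gene, the share of its UMIs that lay in mitosis-high cells was taken with cells called on the other 44 genes. The median share was 89.7% in B lineage cells and 91.5% in T lineage cells, and 22 and 26 genes had at least 90%. In B lineage cells the order began with Sapcd2, a protein of spindle orientation (100% of its UMIs), then Bub1 98.2%, Birc5 98.1%, Kif11 97.6%, Kif2c 97.2%, Cdk1 97.0%, Cenpf 96.9%, Nuf2 96.9%, Mki67 96.7%, Ube2c 96.1%, Hmmr 95.6%, Ccnb2 94.7%, Plk1 94.6%, Tpx2 94.2% and Ttk 94.0%. A middle stretch of 15 genes ran from Spc24 at 93.6% through Ncapg, Ckap2l, Ccna2, Cdca3, Top2a, Anln, Ccnb1, Cenpe, Prc1, Kif23, Cdca8, Kif22 and Bub1b to Cdc20 at 81.3%. Below it came Cks1b 80%, Nusap1 79.8%, Knl1 76.5%, Kif20a 76.4%, Racgap1 71.9%, Aurka 68.4%, Ect2 67.7%, Spc25 65.4%, Aurkb 65.0%, Cks2 64.4%, Ncapd2 55.5%, Smc2 47.6%, Cenpa 39.5%, Ndc80 39.2% and Smc4 29.7%.

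For T lineage cells the order began with Bub1 99.3%, Sapcd2 98.8%, Hmmr 98.6%, Birc5 98.0%, Tpx2 97.9%, Ttk 97.4%, Cenpf 96.7%, Nusap1 96.6%, Nuf2 96.5%, Cdk1 95.9%, Ccna2 95.9%, Ube2c 95.9%, Ccnb2 95.8%, Ckap2l 95.5% and Kif2c 95.1%. It ran on from Aurkb at 95% through Kif11, Knl1, Bub1b, Cdca8, Cdca3, Cenpe, Mki67, Ccnb1, Anln, Spc24, Ncapg, Top2a, Plk1 and Spc25 to Cdc20 at 86.0%. The lowest were Aurka 83.8%, Prc1 78.0%, Ect2 77.0%, Cks2 75.7%, Cks1b 75.6%, Kif22 74.3%, Kif20a 73.4%, Racgap1 67.2%, Kif23 60.5%, Cenpa 58.2%, Ncapd2 56.1%, Smc2 52.9%, Ndc80 43.5% and Smc4 8.76%. The same 4 genes, Smc4, Ndc80, Cenpa and Smc2, stood at or near the foot of both orders, together with Ncapd2. Smc4 and Smc2 are the ATPase arms of condensin, Ncapd2 is a condensin regulatory subunit, and Cenpa is the histone that marks centromeres throughout the cell cycle.

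**Figure D2:**
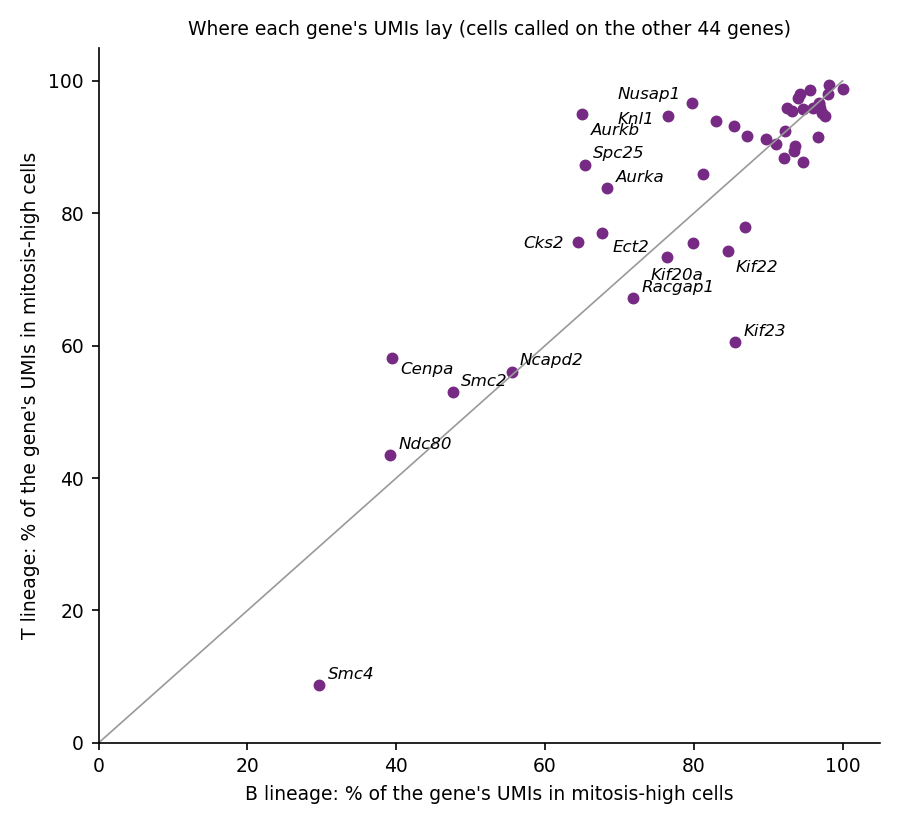
Share of each gene's UMIs that lay in mitosis-high cells, in B lineage cells (horizontal, %) and in T lineage cells (vertical, %), 1 point per gene, with the line of equal shares in grey. Most genes crowd the upper right corner, while Smc4 stands alone at 29.7% and 8.76%, followed by Ndc80 at 39.2% and 43.5%.

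Smc4 stood apart from the other mitosis genes in T lineage cells. It gave 37.6% of all mitosis gene UMIs of T lineage cells and 12.6% of those of B lineage cells, and it was found in 74.9% of T lineage and 31.9% of B lineage cells that were not mitosis-high. Its level in T lineage cells was 447 CPM in KO and 401 CPM in Ctrl at day 4, and 478 CPM in KO and 464 CPM in Ctrl at day 0. In B lineage cells Smc4 reached 95.2 CPM in KO and 103 CPM in Ctrl at day 4, and 91.5 CPM in KO and 84.9 CPM in Ctrl at day 0. The 4 pools of a library thus lay close together for Smc4.

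Of the 5 subsets compared, germinal center gate B cells had the highest share of mitosis-high cells at day 4. The germinal center gate, at least 3 of 10 markers such as Bcl6, Fas, S1pr2 and Mef2b, none of them a mitosis gene, held 25 KO and 31 Ctrl cells at day 4, 14 KO and 2 Ctrl cells at day 0. At day 4, 20 of the 25 KO cells (80%, interval 59.3 to 93.2) and 24 of the 31 Ctrl cells (77.4%, 58.9 to 90.4) were mitosis-high. Among other B lineage cells at day 4 the share was 3.53% in KO and 3.47% in Ctrl mice. Over both day 4 pools the share in the gate was 22.4-fold that of other B lineage cells (interval 15.4 to 32.1). That size depended on the definitions, at 6.72 with a class of at least 3 genes, 38.7 with at least 10, 43.1 in thinned cells and 11.5 with a gate of 2 markers, and the gate was higher in each. At day 0 the gate held 9 mitosis-high cells of 14 in KO (64.3%, 35.1 to 87.2) and 0 of 2 in Ctrl mice, a number of cells that sets no useful limit. The gated cells were also deeper, with a median of 20147 UMIs at day 4 against 5917 in other B lineage cells. After each cell was thinned to 1500 UMIs, 62.5% of gated and 1.45% of other B lineage cells still had at least 3 mitosis genes.

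The edge of the gate was gradual. Of 185 B lineage cells with 2 germinal center markers, just outside it, 26 (14.1%) were mitosis-high, while of 21 cells with exactly 3 markers 9 were. Mitosis-high B lineage cells were not all in the gate. At day 4 it held 20 of 85 in KO (23.5%) and 24 of 68 in Ctrl mice (35.3%). In the 138 mitosis-high cells outside the gate, at least 3 follicular B cell markers were detected in 71.7%, at least 3 marginal zone markers in 60.9% and at least 3 plasma cell markers in 37.0%. Among all other B lineage cells of the day 4 pools those shares were 81.9%, 35.6% and 13.6%, whereas the 138 cells came from all 4 pools. In the 56 cells of the gate itself at day 4 the same shares were 26.8%, 30.4% and 75%, so plasma cell markers were most frequent inside it. The 138 cells were deeper, with a median of 17405.5 UMIs against 5387 over all other B lineage cells. The follicular and marginal zone lists also share a marker, so these shares do not name a cell type.

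Follicular helper and Foxp3 positive T cells also held more mitosis-high cells than the rest of the T library. The follicular helper gate, no Foxp3 and at least 3 of 8 markers such as Cxcr5, Pdcd1, Il21 and Tox2, held 165 KO and 125 Ctrl cells at day 4, 17 KO and 7 Ctrl cells at day 0. Mitosis-high cells made up 46 of the 165 KO cells (27.9%, interval 21.2 to 35.4) and 39 of the 125 Ctrl cells (31.2%, 23.2 to 40.1) at day 4. Foxp3 positive cells, which include the regulatory T cells, had 35 mitosis-high of 344 KO cells (10.2%) and 19 of 193 Ctrl cells (9.84%) at day 4. Other T lineage cells had 65 of 2683 in KO (2.42%) and 54 of 1628 in Ctrl mice (3.32%). Over both day 4 pools the share was 10.6-fold (7.94 to 14.1) that of other T lineage cells in the follicular helper gate, and 3.64-fold (2.59 to 5.07) in Foxp3 positive cells. These sizes depended on the definitions by more than their intervals show. A class of at least 3 genes gave 4.44 and 1.94, and clusters in place of gates 34.3 and 20.3. The clusters only partly overlapped the gates, so these values are for other sets of cells. Of the 610 cells of the follicular helper cluster 42.3% lay in the gate, and the regulatory T cell cluster of 271 cells held 28.9% of the Foxp3 positive cells. For Foxp3 positive cells at least 10 genes gave 5.82. A follicular helper gate at 2 markers, which leaves fewer other cells, gave 5.45 for them.

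At day 0 the T cell subsets were small, with 0 mitosis-high of 17 KO and 1 of 7 Ctrl cells in the follicular helper gate, and 3 of 87 KO (3.45%) and 2 of 61 Ctrl (3.28%) Foxp3 positive cells. Median depth at day 4 was 10764 UMIs in the follicular helper gate, 5416 in Foxp3 positive cells and 5378 in other T lineage cells. In cells thinned to 1500 UMIs, at least 3 mitosis genes were found in 15.2% of follicular helper gate cells, 8.65% of Foxp3 positive cells and 1.91% of other T lineage cells, so the order of the 3 subsets was kept. Of 382 cells with 2 follicular helper markers, 12.6% were mitosis-high, against 27.0% of the 137 with exactly 3. Of 265 cells with a single Foxp3 UMI, 4.91% were mitosis-high. Cd8a was found in 0 of the 281 mitosis-high T lineage cells and Cd4 in 91.8%.

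**Figure D3:**
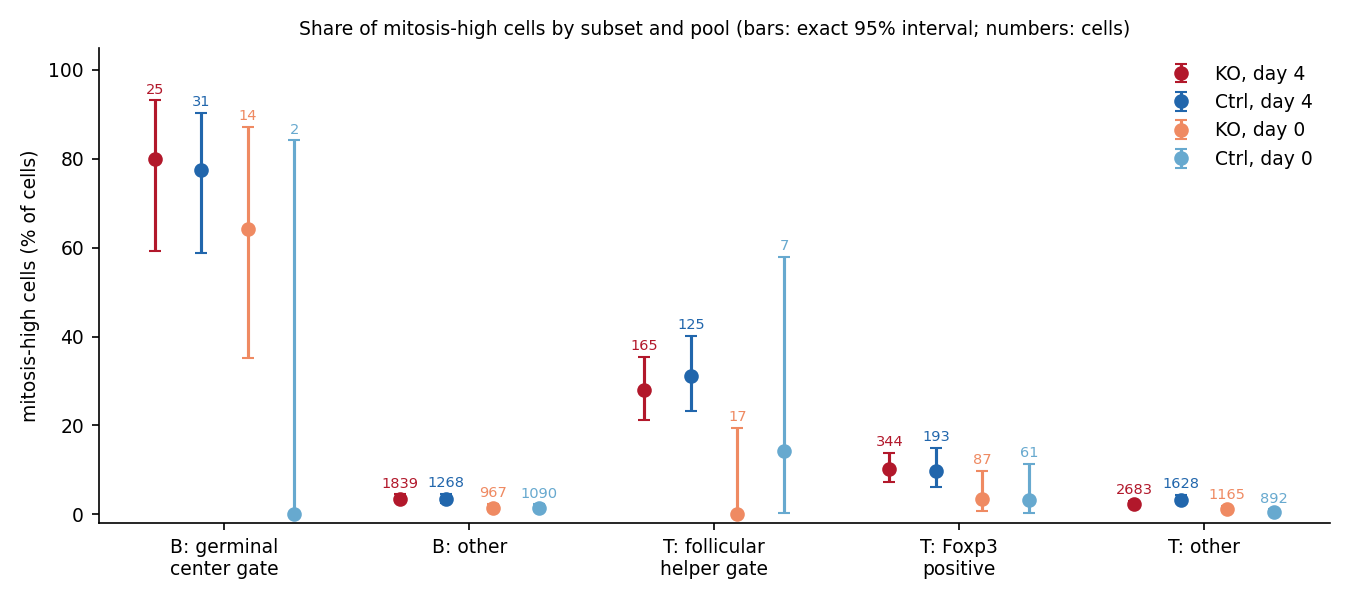
Mitosis-high cells as a percentage of the cells of each subset in each pool, with exact 95% binomial intervals as bars and the number of cells above them; KO day 4, Ctrl day 4, KO day 0 and Ctrl day 0 run from left to right. At day 4 the germinal center gate stands at 80% in KO and 77.4% in Ctrl mice, the follicular helper gate at 27.9% and 31.2%, Foxp3 positive cells at 10.2% and 9.84%, and other cells lower.

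Every mitosis gene was higher in the germinal center gate than in other B lineage cells of the day 4 pools. All 45 passed 2-fold, where 12.8% of all genes tested did, and the median log2 ratio was 3.58 over the mitosis genes and -0.08 over all genes. Mki67, which encodes the Ki-67 protein that coats mitotic chromosomes, was at 715 CPM in KO and 680 CPM in Ctrl cells of the gate, and at 44.6 and 41.0 CPM in other B lineage cells of those pools. It was detected in 72.0% of KO and 80.6% of Ctrl gate cells, against 1.65% of resting-marker B cells, the other B lineage cells with both an Fcer2a and an Ighd UMI (median depth 5514 UMIs). Thinned to 1500 UMIs, Mki67 was found in 44% of KO and 38.7% of Ctrl gate cells and in 0.629% of resting-marker cells. Top2a, the topoisomerase that untangles sister chromatids, was at 524 CPM in KO and 420 CPM in Ctrl gate cells, against 36.9 and 41.5 CPM in other B lineage cells. Birc5, the survivin subunit of the chromosomal passenger complex, was at 293 CPM in KO and 226 CPM in Ctrl gate cells, against 14.9 and 21.1 CPM in other cells. For these 3 genes the gate stood far above the other cells in both genotypes.

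By role, the median log2 ratio of gate over other cells was 3.69 for CDK1 and its cyclins, 3.79 for the mitotic kinases and checkpoint proteins, 3.77 for the anaphase-promoting complex, 3.79 for the passenger complex and 3.72 for spindle motors and microtubule proteins. It was 3.47 for the kinetochore, 3.18 for condensin and chromosome structure and 3.19 for cytokinesis. Cdk1, the kinase that drives entry into mitosis, was at 169 CPM in KO and 101 CPM in Ctrl gate cells, against 8.63 and 9.70 CPM in other B lineage cells. Ccnb1, its partner cyclin B1, was at 102 and 90.1 CPM in the gate, KO and Ctrl in turn, against 5.91 and 4.90 CPM outside it. Cks1b, a small CDK-binding protein, was at 276 CPM in KO and 223 CPM in Ctrl gate cells, against 19.0 and 24.2 CPM in other cells. Bub1, a kinase of the spindle checkpoint, had the highest ratio at 23.0 (interval 15 to 35.8), before Kif2c, a microtubule-depolymerizing kinesin, at 21.2 (12.1 to 37.6) and Ccnb2 at 19.6 (15.8 to 24.4). Smc4 at 3.06 (2.73 to 3.42), Ndc80 at 4.04 (3.03 to 5.32) and Cenpa at 4.60 (3.93 to 5.37) had the lowest. Those 3 were also the least confined to mitosis-high cells in the B library.

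In the T library 44 of 45 mitosis genes were at least 2-fold higher in the follicular helper gate than in other T lineage cells at day 4, where 11.6% of all genes were, and 43 of 45 in Foxp3 positive cells, where 10.3% were. Median log2 ratios were 2.46 and 2.38 over the mitosis genes, against 0.16 and 0.17 over all genes. Mki67 was at 176 CPM in KO and 221 CPM in Ctrl cells of the follicular helper gate, at 213 and 254 CPM in Foxp3 positive cells and at 36.7 and 35.6 CPM in other T lineage cells. It was detected in 28.5% of KO and 28.8% of Ctrl follicular helper gate cells, against 2.87% of KO and 4.36% of Ctrl other T lineage cells, with median depths of 5358 and 5425 UMIs. Thinned, those shares were 10.3% in KO and 13.6% in Ctrl gate cells, against 1.08% and 1.48% of other T lineage cells. Ube2c, the E2 enzyme of the anaphase-promoting complex, stood near the top of both orders, 8.38-fold (7.43 to 9.46) higher in the follicular helper gate and 7.40-fold (6.54 to 8.38) higher in Foxp3 positive cells. Sapcd2 was highest, at 11.6-fold (6.45 to 21.3) and 8.51-fold (4.54 to 16.2), and Ckap2l, a spindle protein, came after Ube2c in both, at 8.32-fold and 6.91-fold.

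The rest of the named set followed in the T library. Top2a was at 199 CPM in KO and 161 CPM in Ctrl follicular helper gate cells, 192 and 129 CPM in Foxp3 positive cells and 39.1 and 30.4 CPM in other T lineage cells. Cdk1 was at 46.3 CPM in KO and 45 CPM in Ctrl gate cells, 37.6 and 42.9 CPM in Foxp3 positive cells and 6.63 and 4.46 CPM in other cells. Ccnb1 was at 43.3 and 39.2 CPM in the gate, 36.3 and 45.1 CPM in Foxp3 positive cells and 7.08 and 5.19 CPM in other cells, KO before Ctrl each time. These 3 genes were several-fold above other T lineage cells in both subsets and both genotypes. Birc5 was at 129 CPM in KO and 122 CPM in Ctrl gate cells, 121 and 130 CPM in Foxp3 positive cells and 22.3 and 22.8 CPM in other cells. Cks1b was at 89.6 CPM in KO and 70.0 CPM in Ctrl gate cells, 79.0 and 75.4 CPM in Foxp3 positive cells and 18.5 and 20 CPM in other cells.

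Smc4 was the exception in T cells. It was lower in the follicular helper gate than in other T lineage cells, at 0.694-fold (interval 0.650 to 0.739), with 317 CPM in KO and 261 CPM in Ctrl gate cells, against 432 and 405 CPM in other cells. In Foxp3 positive cells it was higher, at 1.46-fold (1.39 to 1.53), with 662 CPM in KO and 533 CPM in Ctrl mice at day 4 and 812 CPM in KO and 586 CPM in Ctrl mice at day 0. Smc4 was also the gene of the 45 with the lowest ratio in Foxp3 positive cells, before Ndc80 at 1.93-fold and Smc2 at 2.62-fold.

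**Figure D4:**
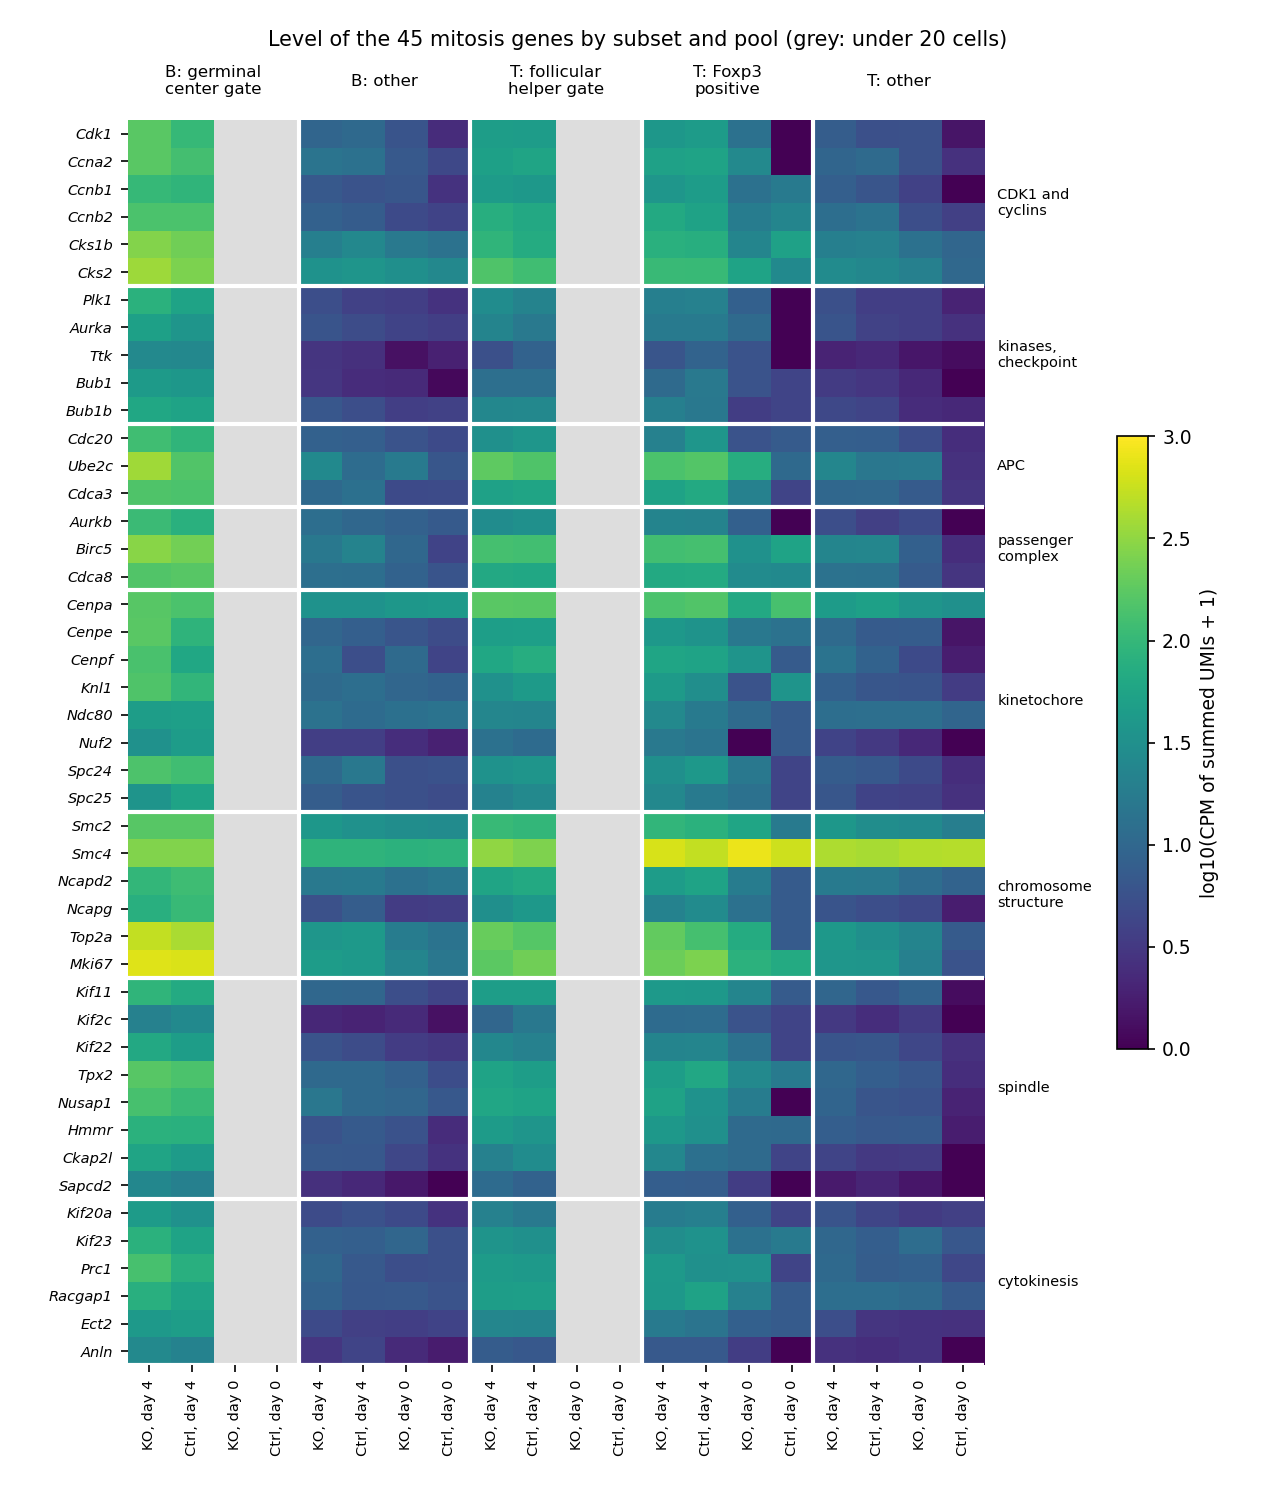
Level of each of the 45 genes as log10(CPM of summed UMIs + 1), rows grouped by role and columns by subset and pool (KO day 4, Ctrl day 4, KO day 0, Ctrl day 0 in each block); grey columns held under 20 cells. The germinal center columns of day 4 are the brightest in most rows, but not for Smc4, whose row is bright in the T cell columns. Colours compare a gene across columns, since 5′ UMI counts of different genes are not set against each other.

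The levels within mitosis-high cells are a description only, since detection of the same genes defines the class and narrows differences within it. At day 4 the median mitosis-high cell had 37.5 of the 45 genes in KO and 28 in Ctrl germinal center gate cells, 8 and 9.5 in other B lineage cells, 12 and 8 in the follicular helper gate, 23 and 23 in Foxp3 positive cells and 7 and 8 in other T lineage cells, KO before Ctrl. All 45 genes were higher in mitosis-high cells of the germinal center gate than in mitosis-high other B lineage cells, and 9 passed 2-fold (5.05% of all genes did), and the median log2 ratio was 0.83. Bub1 at 2.79-fold, Kif2c at 2.62-fold and Ect2, a GTPase exchange factor that starts cytokinesis, at 2.62-fold were the highest, and Kif11, a spindle motor, at 1.05-fold (0.823 to 1.34) the lowest. Between mitosis-high Foxp3 positive and other T lineage cells all 45 were higher and 1 passed 2-fold (2.67% of all genes did), with a median log2 ratio of 0.53. Between mitosis-high follicular helper gate cells and other T lineage cells, 15 of 45 were higher and none passed 2-fold (2.19% of all genes did), with a median log2 ratio of -0.07.

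Mitosis-high cells also carried genes of DNA replication, the step before mitosis. Of 36 replication genes such as the Mcm helicase subunits and Pcna, the median mitosis-high cell at day 4 had 29 in the germinal center gate and 15 in other B lineage cells, against 5 and 3 in cells that were not mitosis-high. Among T lineage cells the medians were 9 in the follicular helper gate, 12 in Foxp3 positive cells and 6 in other cells, against 4, 2 and 2. At least 10 replication genes were found in 43 of the 44 mitosis-high cells of the germinal center gate and in 61 of the 109 outside it. Deeper cells show more genes, and these mitosis-high cells had median depths of 24380 UMIs in the gate and 18670 in other B lineage cells. In T lineage cells the depths were 16243, 15341 and 11469 UMIs, in the order above. The part of depth in these counts was not tested.

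Mitosis-high cells were more frequent at day 4 after sheep red blood cells than at day 0 in both lineages and both genotypes. In B lineage cells the share was 4.56% (85 cells, interval 3.66 to 5.61) in KO mice at day 4, against 2.34% (23 cells, 1.49 to 3.5) at day 0. In Ctrl mice it was 5.23% (68 cells, 4.09 to 6.59) at day 4, against 1.37% (15 cells, 0.771 to 2.26) at day 0. The ratio of day 4 over day 0 was 1.94 (1.22 to 3.23) in KO and 3.81 (2.16 to 7.18) in Ctrl mice. T lineage cells were mitosis-high in 4.57% (146 cells) at day 4 against 1.26% (16 cells) at day 0 in KO mice, and in 5.76% (112 cells) at day 4 against 0.729% (7 cells) at day 0 in Ctrl mice. Those ratios were 3.63 (2.16 to 6.52) in KO and 7.89 (3.71 to 20.1) in Ctrl mice. They depended on depth and on the class: cells thinned to 1500 UMIs, with at least 3 genes, gave 1.88 in KO and 2.96 in Ctrl T lineage cells, and unthinned cells with at least 3 genes gave 1.59 and 1.93, and 1.46 in Ctrl B lineage cells. In both libraries the interval with at least 5 genes lay above 1 for each genotype, and the ratios of KO and Ctrl mice overlapped in their intervals.

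The gates also held more cells at day 4, with 1 exception, the KO germinal center gate. The germinal center gate held 1.34% of KO and 2.39% of Ctrl B lineage cells at day 4, and 1.43% of KO and 0.183% of Ctrl cells at day 0. The follicular helper gate held 5.17% of KO and 6.42% of Ctrl T lineage cells at day 4, and 1.34% and 0.729% at day 0. Foxp3 positive cells were 10.8% of KO and 9.92% of Ctrl T lineage cells at day 4, and 6.86% and 6.35% at day 0. How far the kit for naive CD4+ T cells changed the shares of these T cell subsets was not tested. Outside the gates the share of mitosis-high cells was 3.53% at day 4 against 1.45% at day 0 in KO and 3.47% against 1.38% in Ctrl other B lineage cells. Other T lineage cells had 2.42% at day 4 against 1.12% at day 0 in KO, and 3.32% at day 4 against 0.448% at day 0 in Ctrl mice. At equal depth the days lay closer together. Thinned to 1500 UMIs, the share with at least 3 genes was 1.47% at day 4 against 0.727% at day 0 in KO and 1.42% against 1.11% in Ctrl other B lineage cells, and 1.76% against 1.64% in KO and 2.16% against 1.01% in Ctrl other T lineage cells.

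Summed over all 45 genes, the level in B lineage cells was 852 CPM at day 4 and 604 CPM at day 0 in KO mice, and 934 CPM at day 4 and 353 CPM at day 0 in Ctrl mice. In T lineage cells it was 1336 CPM at day 4 and 833 CPM at day 0 in KO mice, and 1257 CPM at day 4 and 661 CPM at day 0 in Ctrl mice. Cells outside the mitosis-high class have at most 4 of the genes by definition, which bounds their level, and it was 205 CPM at day 4 against 229 CPM at day 0 in KO B lineage cells and 205 against 246 CPM in Ctrl B lineage cells. These values say nothing of a change with the day, since a cell that gained the genes would leave the class. Gene by gene in those cells, 1 of 24 genes tested was at least 2-fold higher at day 4 in KO B lineage cells (1.42% of all genes were) and 0 of 22 in Ctrl B lineage cells (1.28%), and in T lineage cells it was 2 of 23 in KO mice (2.41%) and 2 of 19 in Ctrl mice (2.93%). Each gene that passed reached the limit of 20 UMIs for testing through its day 4 pool alone, which favours genes that are higher there. Without cells of over 20000 UMIs, a limit that removes many mitosis-high cells, the day 4 over day 0 ratio of the summed level in Ctrl B lineage cells was 0.928, against 2.64 with them. As a mean over cells the Ctrl ratios were 1.30 in B and 1.24 in T lineage cells, and without Smc4 the T lineage ratios were 2.50 in KO and 4.34 in Ctrl mice.

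Gene by gene, 39 of 45 were at least 2-fold higher at day 4 than at day 0 in Ctrl B lineage cells, where 3.89% of all genes were, and 5 of 45 in KO B lineage cells, where 2.09% were. All 45 were higher in Ctrl and 43 in KO mice, with median log2 ratios of 1.97 and 0.62, against -0.10 and -0.03 over all genes. Without cells of over 20000 UMIs 2 genes passed in Ctrl and 3 in KO mice, with 1 lower in Ctrl mice, and over all cells of the pools 25 in Ctrl and 10 in KO mice. Here and below, counts of genes under other settings are given without the share of all genes, so they cannot be set against it. Bub1 had 43 UMIs at day 4 and 1 at day 0 in Ctrl B lineage cells, a ratio of 24.8 (interval 4.22 to 1002). Birc5 was at 37.3 CPM at day 4 and 2.96 CPM at day 0 in Ctrl mice, a ratio of 12.6 (7.78 to 21.9), and Cdk1 at 17.0 and 1.39 CPM, a ratio of 12.2 (6.05 to 28.7). Sapcd2 had 26 UMIs at day 4 and 0 at day 0 in Ctrl mice, at least 5.0-fold higher against a floor of 3 counts over the pool. In KO mice the highest were Ttk, the checkpoint kinase Mps1, at 3.26-fold (1.28 to 10.6), Sapcd2 at 2.92-fold (1.14 to 9.56) and Cdk1 at 2.27-fold (1.61 to 3.28), with 15.8 CPM at day 4 and 6.94 CPM at day 0.

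Genes at the foot of the order differed little. In Ctrl B lineage cells Cenpa was at 1.01-fold (0.862 to 1.20), Ndc80 at 1.03-fold (0.769 to 1.39) and Smc4 at 1.21-fold (1.09 to 1.35). In KO B lineage cells Kif2c was at 0.867-fold (0.432 to 1.83), Cenpa at 0.965-fold (0.825 to 1.13) and Kif23, a central spindle kinesin, at 1.01-fold (0.742 to 1.39). Mki67 was at 74.3 CPM at day 4 and 47.2 CPM at day 0 in KO mice, and at 91.5 and 14.6 CPM in Ctrl mice. Top2a was at 58.6 CPM at day 4 and 34.0 CPM at day 0 in KO mice, and at 71.5 and 13.1 CPM in Ctrl mice. Ccnb1 was at 10.2 and 6.76 CPM in KO and at 11.6 and 1.74 CPM in Ctrl mice, and Cks1b at 30.4 and 21.4 CPM in KO and 39.9 and 12.3 CPM in Ctrl mice, day 4 before day 0. For these 4 genes the KO and Ctrl pools lay close together at day 4 and further apart at day 0, where the KO pool was higher.

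By role, the median log2 ratio of day 4 over day 0 in B lineage cells was 0.67 in KO and 2.56 in Ctrl mice for CDK1 and its cyclins, 0.84 and 1.97 for kinases and checkpoint, 0.93 and 2.01 for the anaphase-promoting complex and 0.61 and 2.20 for the passenger complex. It was 0.32 and 1.33 for the kinetochore, 0.46 and 1.61 for condensin and chromosome structure, 0.60 and 2.27 for the spindle and 0.57 and 1.37 for cytokinesis, KO before Ctrl. Each of the 8 roles had the larger median in Ctrl mice. These comparisons share the day 0 and day 4 pools with the genotype comparisons below.

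In T lineage cells 35 of 45 genes were at least 2-fold higher at day 4 in KO mice, where 4.15% of all genes were, and 42 of 45 in Ctrl mice, where 5.59% were, with median log2 ratios of 1.40 and 2.79, against 0.05 and 0.00 over all genes. Genes with under 20 UMIs at day 0, such as Aurkb, Bub1 and Anln in Ctrl mice, were tested only through the day 4 pool. This again favours genes that are higher at day 4. Over all cells of the pools 19 passed in KO mice, and without cells of over 20000 UMIs 23 in Ctrl mice. In KO mice the highest were Birc5, at 44.9 CPM at day 4 and 8.94 CPM at day 0, a ratio of 5.02 (3.82 to 6.72), the checkpoint protein Bub1b at 4.98-fold (2.55 to 11.1) and Ccnb2 at 4.77-fold (3.32 to 7.11). In Ctrl mice they were Aurkb, the passenger complex kinase, with 102 UMIs at day 4 and 1 at day 0, Bub1 with 58 and 1, and the kinetochore protein Cenpf at 20.7 and 1.33 CPM, a ratio of 15.5 (7.05 to 42.8). Anln, the anillin scaffold of the cleavage furrow, had 31 UMIs at day 4 and 0 at day 0 in Ctrl mice, at least 3.71-fold higher against 3 counts over the pool. Smc4 was the 1 gene of 45 that was lower at day 4, at 0.936-fold (0.898 to 0.977) in KO and 0.864-fold (0.821 to 0.910) in Ctrl mice. Next to it stood Ndc80, at 1.24-fold in KO and 1.54-fold in Ctrl mice, Kif23 at 1.29-fold in KO mice and Cenpa at 1.94-fold in Ctrl mice.

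Levels of the named genes in T lineage cells followed the same order of days. Mki67 was at 71.7 CPM at day 4 and 24.2 CPM at day 0 in KO mice, and at 82.2 and 10.2 CPM in Ctrl mice. Top2a was at 73.4 and 24.2 CPM in KO and 57.3 and 7.56 CPM in Ctrl mice, and Cdk1 at 14.3 and 5.04 CPM in KO and 13.6 and 0.889 CPM in Ctrl mice, day 4 before day 0. For these 3 genes both day 4 pools stood above both day 0 pools. Ccnb1 was at 14.2 and 3.41 CPM in KO and 13.7 and 1.33 CPM in Ctrl mice, and Cks1b at 32.9 and 13.0 CPM in KO and 32.2 and 13.3 CPM in Ctrl mice. By role the largest medians in Ctrl mice were 3.33 for the spindle and 3.12 for the anaphase-promoting complex, and the smallest 1.35 for cytokinesis. In KO mice they ranged from 0.86 for cytokinesis to 1.69 for the passenger complex.

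Outside the gates fewer genes passed. Of the genes tested in other B lineage cells, 11 of 45 were at least 2-fold higher at day 4 in KO mice (2.2% of all genes were) and 18 of 42 in Ctrl mice (2.35%). In other T lineage cells it was 9 of 43 in KO (2.07%) and 28 of 40 in Ctrl mice (3.29%), and in Foxp3 positive cells 28 of 42 in KO (7.95%) and 36 of 40 in Ctrl mice (9.96%). A gene needed 20 UMIs in both sums together to be tested. Genes with few UMIs at day 0 were tested only through the day 4 pool, which favours genes that are higher there.

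**Figure D5:**
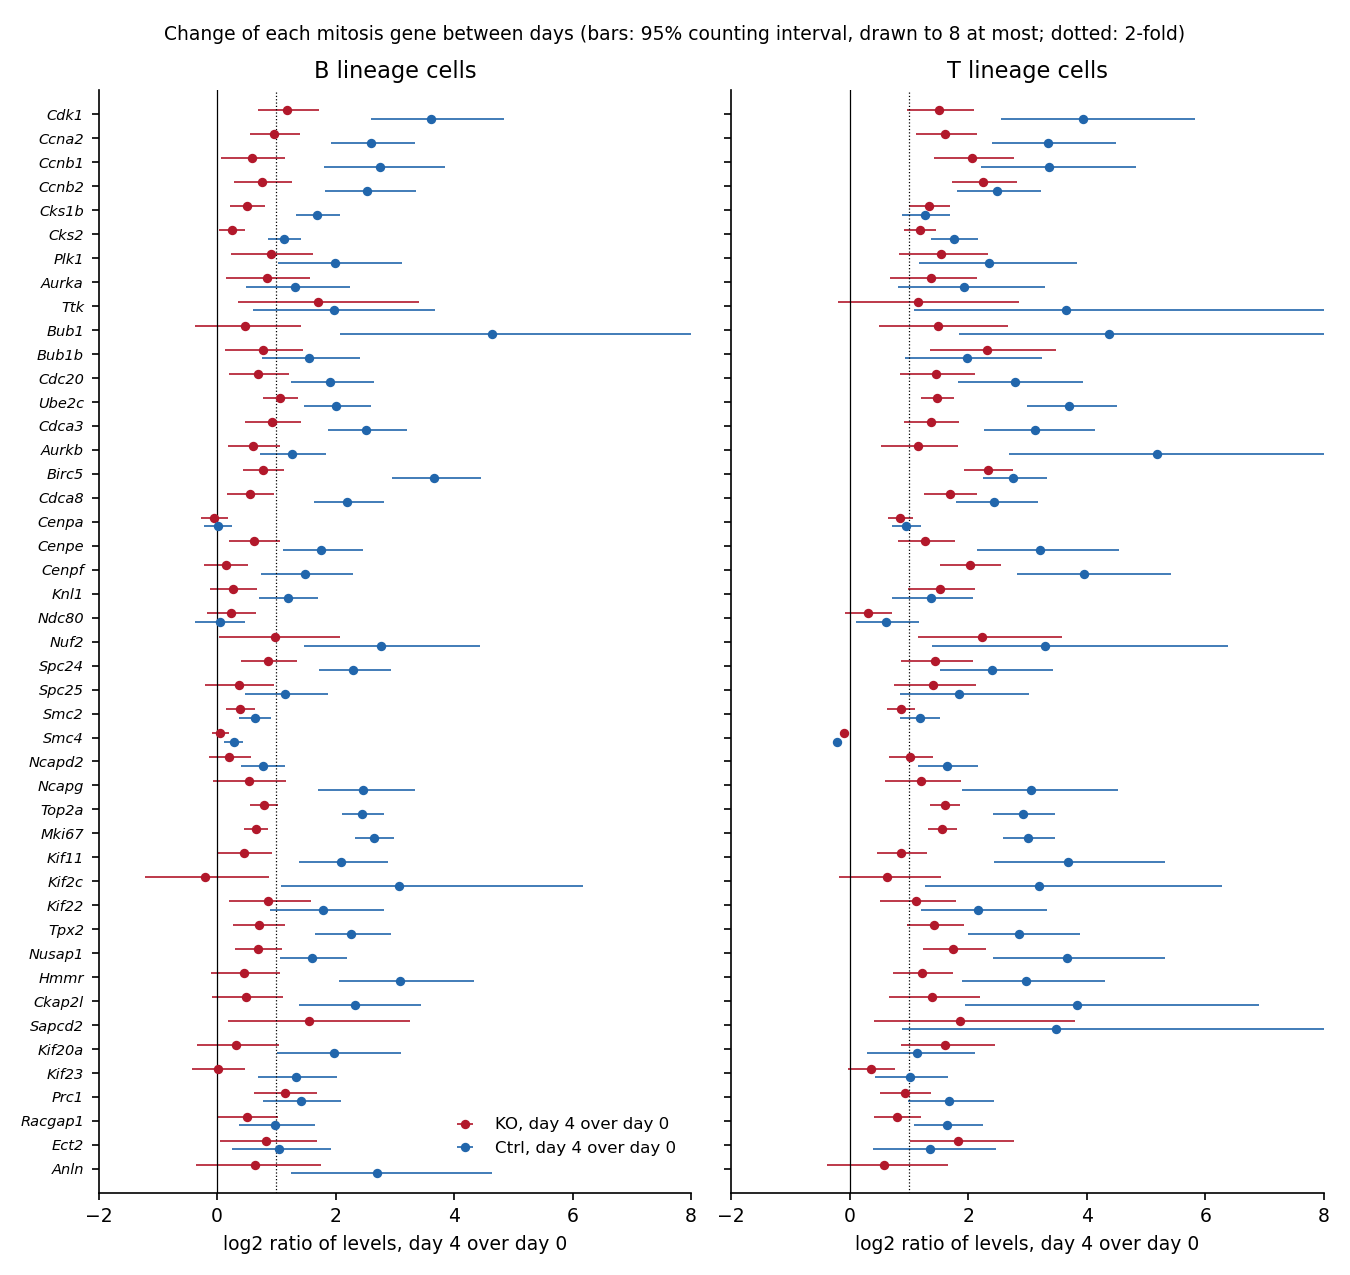
Log2 ratio of day 4 over day 0 for each of the 45 genes in KO mice (red) and Ctrl mice (blue), B lineage cells left and T lineage cells right; bars are 95% counting intervals drawn to 8 at most, and the dotted line marks 2-fold. Ctrl points lie further right than KO points for most genes. Sapcd2 in Ctrl B lineage cells and Anln in Ctrl T lineage cells have no point, since both had 0 UMIs at day 0.

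At day 4 the share of mitosis-high cells differed between genotypes by less than the counting intervals. The share of mitosis-high cells was 4.56% in KO and 5.23% in Ctrl B lineage cells, a ratio of 0.871 (interval 0.626 to 1.22), and 4.57% in KO and 5.76% in Ctrl T lineage cells, a ratio of 0.795 (0.617 to 1.03). Within the germinal center gate the ratio of KO over Ctrl shares was 1.03, in other B lineage cells 1.02, in the follicular helper gate 0.894, in Foxp3 positive cells 1.03 and in other T lineage cells 0.730 (0.501 to 1.07). The last was 1.45 with clusters in place of gates, which leave a different set of other T lineage cells. The summed level in B lineage cells was 852 CPM in KO and 934 CPM in Ctrl mice, a ratio of 0.912, but 1.30 without cells of over 20000 UMIs, 1.04 as a mean over cells and 0.741 over all cells of the pools whatever their lineage. The limit of 20000 UMIs removed a larger share of the mitosis-high B lineage cells of Ctrl than of KO mice. Their median depth was 22660.5 UMIs in Ctrl and 18727 in KO mice, so the value of 1.30 does not compare like cells. The germinal center gate alone summed to 6426 CPM in KO and 5209 CPM in Ctrl mice, with 16.9% and 19.7% of those UMIs in a single cell. T lineage cells summed to 1336 CPM in KO and 1257 CPM in Ctrl mice, a ratio of 1.06, and 0.999 when hashtags were read by a ratio rule.

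No mitosis gene was 2-fold apart between KO and Ctrl B lineage cells at day 4, where 1.11% of all genes were at least 2-fold higher and 1.48% at least 2-fold lower. With other sets of cells some genes passed, 10 higher in KO mice without cells of over 20000 UMIs, 2 higher without cells of at least 10 erythroid UMIs and 1 lower over all cells of the pools. These counts too have no share of all genes beside them. Of the 45, 12 were higher in KO mice, and the median log2 ratio was -0.14, against 0.03 over all genes. Ube2c and Cenpf came nearest. Ube2c was at 41.3 CPM in KO and 21.7 CPM in Ctrl B lineage cells, a ratio of 1.91 (interval 1.63 to 2.24), from 556 UMIs in 51 KO cells and 216 UMIs in 44 Ctrl cells. Cenpf was at 16.8 CPM in KO and 8.73 CPM in Ctrl cells, a ratio of 1.92 (1.5 to 2.49), from 226 UMIs in 34 and 87 UMIs in 23 cells. The 1 top cell held 16.0% of the KO and 16.7% of the Ctrl UMIs of Ube2c, and without the top cell of each pool the ratio was 1.92 for Ube2c and 2.10 for Cenpf. The share of B lineage cells with a Ube2c UMI was 2.74% in KO and 3.39% in Ctrl mice.

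Both genes passed 2-fold within each subset of the B library. In the germinal center gate Ube2c was at 375 CPM in KO and 152 CPM in Ctrl cells, a ratio of 2.46 (1.96 to 3.10), and Cenpf at 137 and 60.9 CPM, a ratio of 2.25 (1.56 to 3.29). In other B lineage cells Ube2c was at 25.8 CPM in KO and 10.5 CPM in Ctrl cells, a ratio of 2.47 (1.96 to 3.13), and Cenpf at 11.2 and 4.25 CPM, a ratio of 2.63 (1.84 to 3.86). Within mitosis-high B lineage cells the ratios were 2.63 for Ube2c and 2.54 for Cenpf, 2 of 45 genes past 2-fold, where 3.07% of all genes were. These were also the 2 of 45 past 2-fold in the gate, where 3.13% of all genes were at least 2-fold higher, and in other B lineage cells, where 1.17% were. In the gate and in mitosis-high cells 2 of 45 is near the share of all genes. Mitosis-high cells belong to the gate or to other B lineage cells, so these sets share cells and are not separate support. In T lineage cells at day 4 Ube2c was at 52.8 CPM in KO and 46.2 CPM in Ctrl mice and Cenpf at 23.1 and 20.7 CPM, so both genes lay much closer together there.

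Lowest in KO B lineage cells at day 4 were Ncapg, a condensin subunit, at 0.535-fold (0.412 to 0.693; 104 UMIs in KO, 144 in Ctrl), the kinetochore proteins Nuf2 at 0.653-fold (0.441 to 0.964) and Spc24 at 0.673-fold (0.555 to 0.815). Prc1, which bundles central spindle microtubules, was the third highest after Cenpf and Ube2c, at 1.26-fold (0.992 to 1.60). In the germinal center gate 35 of 45 genes were higher in KO mice, with Cenpe, a kinetochore motor, at 1.90-fold (1.39 to 2.62) and Spc25 lowest at 0.660-fold (0.371 to 1.14). The role medians over all B lineage cells lay between -0.38 for the passenger complex and -0.05 for kinases and checkpoint. None of the 6 genes of CDK1 and its cyclins was higher in KO mice over all B lineage cells. Within subsets 5 of the 6 were higher in the germinal center gate, 3 in other B lineage cells and 6 within mitosis-high cells. Outside the mitosis-high class 2 of 28 genes tested were at least 2-fold higher in KO B lineage cells (1.12% of all genes were), Ccna2 at 2.33-fold (0.903 to 7.10) and Bub1b at 2.10-fold (0.798 to 6.46), both with intervals that included 1. Ccna2 had 20 UMIs in KO and 6 in Ctrl mice and Bub1b 18 and 6, so both reached the limit of 20 UMIs mainly through the KO pool.

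No mitosis gene was 2-fold apart between KO and Ctrl T lineage cells at day 4 either, where 0.83% of all genes were at least 2-fold higher in KO mice and 1.01% at least 2-fold lower. Without cells of over 20000 UMIs 3 genes were 2-fold higher in KO mice. Of the 45, 29 were higher in KO mice, with a median log2 ratio of 0.07. The highest were Aurka, the centrosomal kinase, at 1.35-fold (1.02 to 1.81), Ect2 at 1.33-fold (0.997 to 1.79) and the spindle protein Nusap1 at 1.30-fold (1.09 to 1.57). The lowest were Ttk at 0.648-fold (0.395 to 1.06), Cdc20 at 0.805-fold (0.657 to 0.988) and Ncapg at 0.847-fold (0.677 to 1.06). Within the follicular helper gate none passed 2-fold in either direction (1.92% of all genes were at least 2-fold higher), with Aurka highest at 1.40-fold and Ttk lowest at 0.574-fold (0.214 to 1.49). In Foxp3 positive cells none passed either (1.96% did), with Ckap2l highest at 1.98-fold (1.12 to 3.71) and Cdc20 lowest at 0.543-fold (0.356 to 0.825). Among other T lineage cells 1 gene passed, Ect2 at 2.27-fold (1.33 to 4.07; 0.799% of all genes did). Within mitosis-high T lineage cells none passed (2.03% of all genes did) and 39 of 45 were higher in KO mice, with a median log2 ratio of 0.35 and Aurka highest at 1.78-fold (1.31 to 2.46). Outside that class 2 of 30 genes were at least 2-fold higher in KO mice (0.786% of all genes were). Spc25 was at 3.08-fold (1.03 to 12.4; 20 UMIs in KO, 4 in Ctrl) and Cenpe at 2.83-fold (1.05 to 9.53; 23 and 5). Both reached the limit of 20 UMIs only through the KO pool. Ncapg was more than 2-fold lower, at 0.461-fold (0.199 to 1.04; 12 and 16).

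In mice that were not immunized few cells were mitosis-high, and their share was higher in KO than in Ctrl mice by less than the counting intervals. The share of mitosis-high cells was 2.34% in KO and 1.37% in Ctrl B lineage cells, a ratio of 1.71 (interval 0.853 to 3.52), and 1.26% in KO and 0.729% in Ctrl T lineage cells, a ratio of 1.73 (0.673 to 4.97). Both intervals included 1. Of the 23 mitosis-high KO B lineage cells 9 lay in the germinal center gate, and other B lineage cells had 14 mitosis-high of 967 in KO (1.45%) and 15 of 1090 in Ctrl mice (1.38%). Thinned to 1500 UMIs, the share with at least 3 mitosis genes was 1.33% in KO and 1.11% in Ctrl B lineage cells, and 0.727% and 1.11% in other B lineage cells.

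At day 0, 22 of the 39 mitosis genes tested were at least 2-fold higher in KO than in Ctrl B lineage cells, where 1.54% of all genes were, and 37 of 39 were higher, with a median log2 ratio of 1.08. Genes with under 20 Ctrl UMIs, such as Birc5, Cdk1 and Cenpf, were tested only through the KO pool. This favours genes that are higher there, so the 2 shares are not like for like. The count was 1 without cells of over 20000 UMIs, and 0 with 1 gene lower over all cells of the pools. Birc5 was at 15.8 CPM in KO and 2.96 CPM in Ctrl mice, a ratio of 5.36 (3.17 to 9.60), from 89 UMIs in 10 KO cells and 17 UMIs in 6 Ctrl cells, with 37.1% of the KO UMIs in 1 cell. Cdk1 had 39 UMIs in KO and 8 in Ctrl mice, a ratio of 4.99 (2.30 to 12.4), and Cenpf 85 and 18, a ratio of 4.83 (2.88 to 8.54). Ndc80 at 0.927-fold, Cenpa at 0.993-fold and Ect2 at 1.02-fold were the lowest. Without germinal center gate cells, 8 of 39 genes passed 2-fold (0.988% of all genes did). The summed level was 604 CPM in KO and 353 CPM in Ctrl mice, a ratio of 1.71 that was 1.14 without cells of over 20000 UMIs and 0.891 over all cells of the pools, and 1 cell held 31.6% of the mitosis gene UMIs of the KO gate.

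Of the genes tested in T lineage cells at day 0, 19 of 37 genes were at least 2-fold higher in KO mice, where 1.6% of all genes were, and 32 of 37 were higher. Aurkb had 24 UMIs in KO and 1 in Ctrl mice, a ratio of 17.6 (2.86 to 722), Kif11 had 55 and 5, a ratio of 8.05 (3.25 to 25.8), and Cdk1 had 31 and 4, a ratio of 5.67 (2.0 to 22.1). Kif20a at 0.90-fold, Ect2 at 0.951-fold and Cenpa at 0.967-fold were lowest. A gene with few Ctrl UMIs was tested only through the KO pool, which favours genes that are higher there. With a limit of 50 UMIs in place of 20 the genes past 2-fold numbered 8. The 16 KO and 7 Ctrl mitosis-high cells held 29.6% and 11.6% of the mitosis gene UMIs of those pools. In other T lineage cells 21 of 34 genes passed (1.46% of all genes did), among them Kif11, tested through its 46 KO UMIs with 1 in Ctrl mice. Of 9 genes tested in Foxp3 positive cells 4 were at least 2-fold higher in KO mice (3.23% of all genes were) and 2 at least 2-fold lower (2.8% were). These counts rested on 3 mitosis-high cells in KO and 2 in Ctrl mice. A single cell held 47.6% of the mitosis gene UMIs of the KO and 36.5% of those of the Ctrl Foxp3 positive cells. Without cells of over 20000 UMIs no gene of T lineage cells was 2-fold higher, and the summed level in KO over Ctrl mice was 0.954, against 1.26 with them.

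Other cell cycle genes gave a setting for the mitosis genes. A list of 48 further G2 and M genes and the list of 36 replication genes were higher in the same subsets. In the germinal center gate 47 of 48 G2 and M genes and 34 of 36 replication genes were at least 2-fold higher than in other B lineage cells (12.8% of all genes were), with median log2 ratios of 3.05 and 2.58. In the follicular helper gate it was 40 of 48 and 25 of 36 (11.6% of all genes), with medians of 2.21 and 1.36. In Foxp3 positive cells it was 42 of 48 and 18 of 36 (10.3% of all genes), with medians of 2.06 and 0.97. The median of the mitosis genes was larger in each of the 3 subsets. Genes that restrain the cycle, such as the CDK inhibitors, had medians of -0.60 in the germinal center gate, 0.01 in the follicular helper gate and 0.38 in Foxp3 positive cells.

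Between days the same lists had smaller medians than the mitosis genes in both lineages. In Ctrl B lineage cells 31 of 47 G2 and M genes and 16 of 36 replication genes were at least 2-fold higher at day 4 (3.89% of all genes were), with medians of 1.35 and 0.96. In KO B lineage cells it was 6 of 48 and 4 of 36 (2.09%), with medians of 0.41 and 0.23. Over T lineage cells it was 25 of 48 and 9 of 36 in KO mice (4.15%), with medians of 1.01 and 0.55. In Ctrl T lineage cells it was 34 of 46 and 17 of 36 (5.59%), with medians of 2.05 and 0.84. Between genotypes at day 4 replication genes in B lineage cells were higher in KO mice for 3 of 36 genes, with a median log2 ratio of -0.40 and 1 gene at least 2-fold lower, while 17 of 48 G2 and M genes were higher, with a median of -0.13. The T library had 8 of 36 replication genes higher in KO mice at day 4, with a median of -0.14 and none 2-fold apart.

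Il2rb itself, on the T cell side where it is not deleted, was detected in 69.8% of mitosis-high T lineage cells and in 13.6% to 25.8% of all T lineage cells of a pool. Its level was 164 CPM in mitosis-high T lineage cells over all pools. In all T lineage cells it was 97.1 CPM in KO and 104 CPM in Ctrl mice at day 4, and 69.9 CPM in KO and 84.7 CPM in Ctrl mice at day 0. Mitosis-high cells were deeper by the medians given above, and the part of depth in that share was not tested.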

How the data were processed

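The deposited matrices hold UMI counts per cell for genes and 4 hashtags, made by the authors with Cell Ranger 5.0.0 on mm10, per the submitters' processing notes; the annotation release is not stated in the labels. A cell was kept if it had 200 or more genes and no more than 10% mitochondrial UMIs, and hashtags were called with HTODemux in Seurat 5.3.0 (R 4.3.3, quantile 0.99). Exactly 1 hashtag was called in 5477 cells of the B library and 7636 of the T library, and cells with more than 1 were set aside as doublets, which misses doublets within a pool.

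UMIs were summed per pool or subset and scaled to CPM, with 95% intervals (exact Poisson for a level, conditional binomial for a ratio, exact binomial for a share; scipy 1.17.1, numpy 2.4.6, pandas 2.3.3). The ratio code was tested on simulated data. A gene was tested if the 2 sums held 20 or more UMIs and each group 20 or more cells, and called at 2-fold. A sum of 0 was bounded with 3 counts. Shares were repeated after thinning cells to 1500 UMIs, which left out 23 B lineage and 28 T lineage cells as too shallow. Gates came from marker UMIs, and clusters (scanpy 1.11.5, leidenalg 0.10.2) were an alternative.

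Named genes were Mki67, Top2a, Cdk1, Ccnb1, Birc5, Cks1b and Smc4 throughout, up to 3 highest and 3 lowest genes of each comparison, and every gene by its share of UMIs in mitosis-high cells. Genes, lists and markers were chosen with earlier results of these data known. Alternatives covered the hashtag rule, filters, lineage rule, scaling, class and gate limits and the fold. Cell-free RNA was not removed. Some marker genes, and a background share that rested on one of them, are not reported here.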

Additional observations from a re-analysis of the deposited data

Results flagged for a closer look

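The summed level of the mitosis genes in B lineage cells was higher in KO than in Ctrl mice at day 0 and lower at day 4, with ratios of 1.71 and 0.912. This reversal of direction between days was not tested, since each group was 1 pool, and without cells of over 20000 UMIs the ratios were 1.14 and 1.30. At day 4 that limit removed a larger share of the mitosis-high B lineage cells of Ctrl than of KO mice. At day 0, 23 KO and 15 Ctrl mitosis-high cells held 64.5% and 32.9% of the mitosis gene UMIs of their pools.

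Cells outside the comparisons also carried mitosis genes. B lineage cells with several hashtags were mitosis-high in 9.23% of 531 cells (95% interval 6.90 to 12), against 3.65% of B lineage cells with 1 hashtag. T lineage cells with several hashtags were mitosis-high in 8.25% of 945 cells (6.58 to 10.2), against 3.81% of those with 1 hashtag. Cells with 1 hashtag that failed the lineage rule were mitosis-high in 21.6% of 241 B-library cells and in 13.4% of 269 T-library cells. Of the 52 such mitosis-high cells of the B library, 20 had at least 10 erythroid UMIs and 25 at least 10 UMIs of foreign lineage markers, and of the 36 of the T library 13 and 7 had. All 241 B-library cells that failed the lineage rule held 30.8% of the mitosis gene UMIs of B-library cells with 1 hashtag, and the 269 of the T library held 9.34% of those there.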

How the results depend on the processing

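Of 468 values recomputed under other settings for 46 results, 386 kept their direction and size, 76 moved and 6 reversed, and the causes were not tested. The KO over Ctrl shares of mitosis-high cells kept their size except in other T lineage cells. There the ratio went from below 1 to 1.45 with clusters in place of gates, a change of direction, but the clusters only partly overlapped the gates. Ratios below are KO over Ctrl or day 4 over day 0.

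With a ratio rule for hashtags, the summed level was 0.878 (KO over Ctrl, day 4) in the B library and 0.999, reversed, in the T library, where day 4 over day 0 was 1.77 in KO and 2.16 in Ctrl mice, and 10 genes were 2-fold higher at day 4 in KO B lineage cells. Without filters on genes and mitochondrial share the T library gave 1.19 (KO over Ctrl, day 0) and 1.72 (day 4 over day 0, KO).

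Over all cells of a pool, whatever their lineage, the B library gave 0.741 at day 4 and 0.891, reversed, at day 0 for KO over Ctrl, and 1.497 in KO and 1.80 in Ctrl mice for day 4 over day 0. Genes at least 2-fold lower in KO mice numbered 1 at day 4 and 1 at day 0, those higher 0 at day 0, and those higher at day 4 than at day 0 10 in KO and 25 in Ctrl mice. The T library gave 1.01 at day 4 and 1.36 at day 0 for KO over Ctrl, and 1.46 for day 4 over day 0 in KO mice with 19 genes 2-fold higher.

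With cells of at most 20000 UMIs the B library gave 1.30, reversed, at day 4 and 1.14 at day 0 for KO over Ctrl, and 1.06 in KO and 0.928, reversed, in Ctrl mice for day 4 over day 0. At day 4 this limit removed a larger share of the mitosis-high B lineage cells of Ctrl than of KO mice. Genes 2-fold higher in KO mice then numbered 10 at day 4 and 1 at day 0, and those higher at day 4 than at day 0 3 in KO and 2 in Ctrl mice, with 1 lower in Ctrl mice. The T library gave 1.15 at day 4 and 0.954, reversed, at day 0 for KO over Ctrl, and 1.42 in KO and 1.18 in Ctrl mice for day 4 over day 0. There 3 genes were 2-fold higher in KO mice at day 4, 0 higher and 4 lower at day 0, and 23 higher at day 4 than at day 0 in Ctrl mice.

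As a mean over cells the B library gave 1.04, reversed, at day 4 and 1.18 at day 0 for KO over Ctrl, and 1.14 in KO and 1.30 in Ctrl mice for day 4 over day 0. The T library gave 1.07 for KO over Ctrl at day 0, and 1.22 in KO and 1.24 in Ctrl mice for day 4 over day 0. Scaling without ribosomal, mitochondrial and receptor genes gave 1.55 for day 4 over day 0 in KO T lineage cells.

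A class of at least 3 genes gave share ratios of 6.72 for the germinal center gate, 4.44 for the follicular helper gate and 1.94 for Foxp3 positive cells over other cells, 1.46 for day 4 over day 0 in Ctrl B lineage cells, and 1.59 in KO and 1.93 in Ctrl T lineage cells. At least 10 genes gave 38.7 for the germinal center gate and 5.82 for Foxp3 positive cells. Thinned cells gave 43.1 for the germinal center gate, and 1.88 in KO and 2.96 in Ctrl mice for day 4 over day 0 in T lineage cells. Gates at 2 markers gave 11.5 for the germinal center gate and 5.45 for Foxp3 positive cells. Clusters, which only partly overlapped the gates, gave 34.3 for the follicular helper cluster and 20.3 for the regulatory T cell cluster.

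With at least 50 UMIs per gene, 3 genes were 2-fold higher at day 4 in KO B lineage cells and 8 in KO over Ctrl T lineage cells at day 0. At 1.5-fold, 2 genes were higher and 2 lower in KO B lineage cells at day 4, 1 lower in KO T lineage cells, and 25 higher at day 4 in KO B lineage cells.

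The next 3 settings were chosen after seeing the data. Allowing 10% foreign marker UMIs gave 1.39 for KO over Ctrl at day 0 and 1.48 for day 4 over day 0 in KO mice in the T library. Without cells of at least 10 erythroid UMIs the B library gave 0.979 for KO over Ctrl at day 4 with 2 genes 2-fold higher, 2.50 for day 4 over day 0 in Ctrl mice, and 9 genes 2-fold higher at day 4 in KO mice, and the T library 1.17 for KO over Ctrl at day 0 and 1.71 for day 4 over day 0 in KO mice. Without Smc4 the B library gave 1.91 for KO over Ctrl at day 0, and 1.48 in KO and 3.10 in Ctrl mice for day 4 over day 0. The T library without it gave 1.04 at day 4 and 1.80 at day 0 for KO over Ctrl, and 2.50 in KO and 4.34 in Ctrl mice for day 4 over day 0.

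No paired analysis was possible because each group was 1 pool with no replicate number, and there was no replicate to leave out.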
